A study of Mus musculus with 8 samples.

Results

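Gata3 and Bcl11b, the transcription factors that set T cell commitment, were read across the 8 RNA-seq libraries of a mouse pro-T cell line. They were taken by name from the deposited count table, as 2 rows of 24505, and both passed the filter on low counts that left 12699 genes for testing. The cells were Scid.adh.2c2, an established line that resembles early thymocytes close to commitment. Each of the 4 groups held 2 libraries. Retroviruses delivered the wild-type form of Runx1 (the Runx1 WT group) or a construct called Runx1 DN, delivered Satb1, or were a mock virus that carried GFP. DN usually stands for dominant negative in work on Runx proteins, but the labels neither spell it out nor describe what the construct keeps of the protein. All cells came from that single line, and infected cells were sorted 2 days after infection, with RNA from 300000 cells per library.

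Gata3 is a zinc finger factor that binds GATA sites. It is needed from the first steps of T cell development, it turns progenitors away from the B cell fate, and later it directs CD4 T cells, type 2 helper cells and type 2 innate lymphoid cells. Bcl11b is a zinc finger factor that recruits chromatin-modifying complexes and is switched on as thymocytes commit to the T lineage. It keeps natural killer, innate lymphoid and progenitor genes down in committed cells. Runx factors, Notch signalling, TCF-1 and Gata3 itself are known to act on the Bcl11b locus, so the 3 constructs ask how these commitment factors follow a gain or a disturbance of Runx1 and a gain of Satb1, a chromatin organiser of thymocytes.

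The level of a gene is given in CPM, its read count scaled to a common library total after correction by edgeR's TMM factors. Groups were compared by edgeR's quasi-likelihood test in a fit of all 8 libraries. P-values are two-sided, were adjusted by Benjamini-Hochberg across the 12699 genes, and pass at an adjusted p under 0.05. Library totals ran from 23624498 to 33093330 counts. The constructs were visible in their own genes, whose counts can include RNA from the virus. Runx1 had 7647 and 8307 CPM in Runx1 WT cells, 21200 and 24240 CPM in Runx1 DN cells, 181 and 184 CPM in Satb1 cells and 138 and 129 CPM in mock cells. Satb1 had 298 and 307 CPM in Runx1 WT cells, 211 and 204 CPM in Runx1 DN cells, 3583 and 3983 CPM in Satb1 cells and 385 and 377 CPM in mock cells. The labels do not say that libraries of a group came from separate cultures, so the p-values rest on the spread among these libraries alone, and that spread may be technical. The Satb1 and mock libraries numbered 2 stood apart in 10 genes of glycolysis and hypoxia, chosen with earlier results known. Their summed level was 2214 and 1977 CPM in Runx1 WT cells, 4266 and 4324 CPM in Runx1 DN cells, 5224 and 11700 CPM in Satb1 cells and 8121 and 13770 CPM in mock cells. The sum also differed between groups, lowest in Runx1 WT cells, and its part in the members' levels was not tested. Every comparison against mock uses the same 2 mock libraries, so those comparisons are not independent. Member values are also given without the Satb1 and mock libraries numbered 2.

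Both members lie on the minus strand. The row for Gata3 (NM_008091) spans chr2:9778705-9800227 of mm9, with 3207 bases of exon. The row for Bcl11b (NM_001079883) spans chr12:109148613-109241624 of mm9, with 7917 bases of exon. Because the genes moved together, the 250 bases before the start of each are shown, 5′ to 3′ on the gene's strand, from RefSeq on GRCm38.p6, at chr2:9878601-9878850 for Gata3 and chr12:108003415-108003664 for Bcl11b. These positions belong to another build than the count table. On that build the RefSeq span of Gata3 includes longer transcripts, so this window may not precede every start of the gene. Capitals mark CTTTGA, the core that TCF-1 and LEF-1 read.
Gata3: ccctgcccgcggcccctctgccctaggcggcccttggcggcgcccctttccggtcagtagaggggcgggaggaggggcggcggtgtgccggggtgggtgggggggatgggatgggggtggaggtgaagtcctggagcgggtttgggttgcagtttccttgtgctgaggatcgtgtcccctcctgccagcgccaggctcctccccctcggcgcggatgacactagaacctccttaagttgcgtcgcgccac
Bcl11b: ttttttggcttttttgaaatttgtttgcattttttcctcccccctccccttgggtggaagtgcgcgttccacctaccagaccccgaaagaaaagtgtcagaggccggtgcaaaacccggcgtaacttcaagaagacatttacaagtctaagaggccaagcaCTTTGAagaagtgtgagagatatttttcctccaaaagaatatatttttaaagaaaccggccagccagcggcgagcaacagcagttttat

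The promoters differ in composition. Gata3's held 70.0% G and C with 19 CpG pairs, and 90.8% of 32851 RefSeq promoters of this length had a lower share. Bcl11b's held 44.8% with 9 CpG pairs, and 23.2% of promoters had a lower share. The median promoter held 52.4%. Letters of known motifs were searched on both strands. CTTTGA was found in Bcl11b, 89 to 84 bases before the start, and 13.8% of promoters hold it. The Runx core TGTGGT is held by 14% of promoters, and GTGGGAA, for the Notch partner CSL, by 5.42%. For GATA factors AGATAA was searched, with AGATAG and the forms that start with T in place of the first A, and 26.5% of promoters hold at least 1 of them. The E protein motif CANNTG is held by 66.2%. The Ets motif AGGAAG, or the form with C in place of its first A, is held by 39.2%. None of these was in either window. The Runx and CSL letters share GTGG, and CANNTG reads the same on both strands. These are matches of letters in a short window and say nothing of binding there or elsewhere in the loci.

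Gata3 was highest in Runx1 WT cells and lowest in Runx1 DN cells. It had 18419 and 18334 counts in Runx1 WT cells, 995 and 997 counts in Runx1 DN cells, 4742 and 6254 counts in Satb1 cells and 4924 and 7265 counts in mock cells. Scaled for depth, the levels were 657 and 655 CPM in Runx1 WT cells, 41.4 and 35.9 CPM in Runx1 DN cells, 163 and 199 CPM in Satb1 cells and 186 and 232 CPM in mock cells. Both Runx1 WT libraries lay above every other library and both Runx1 DN libraries below, whereas the Satb1 and mock libraries overlapped. In bulk RNA, fewer cells that express a gene and less RNA per cell cannot be told apart. In Satb1 and mock cells library 2 exceeded library 1 by 1.22-fold and 1.25-fold, a spread that the Runx1 WT libraries did not have.

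Bcl11b kept the same outer order with smaller steps. It had 29094 and 31642 counts in Runx1 WT cells, 7519 and 7372 counts in Runx1 DN cells, 14973 and 17493 counts in Satb1 cells and 13321 and 15657 counts in mock cells. The levels were 1038 and 1130 CPM in Runx1 WT cells, 313 and 265 CPM in Runx1 DN cells, 514 and 556 CPM in Satb1 cells and 504 and 499.7 CPM in mock cells. No group overlapped another, but the Satb1 and mock libraries lay close together. At these counts the counting error is small, and the spread between libraries sets the precision.

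**Figure D1:**
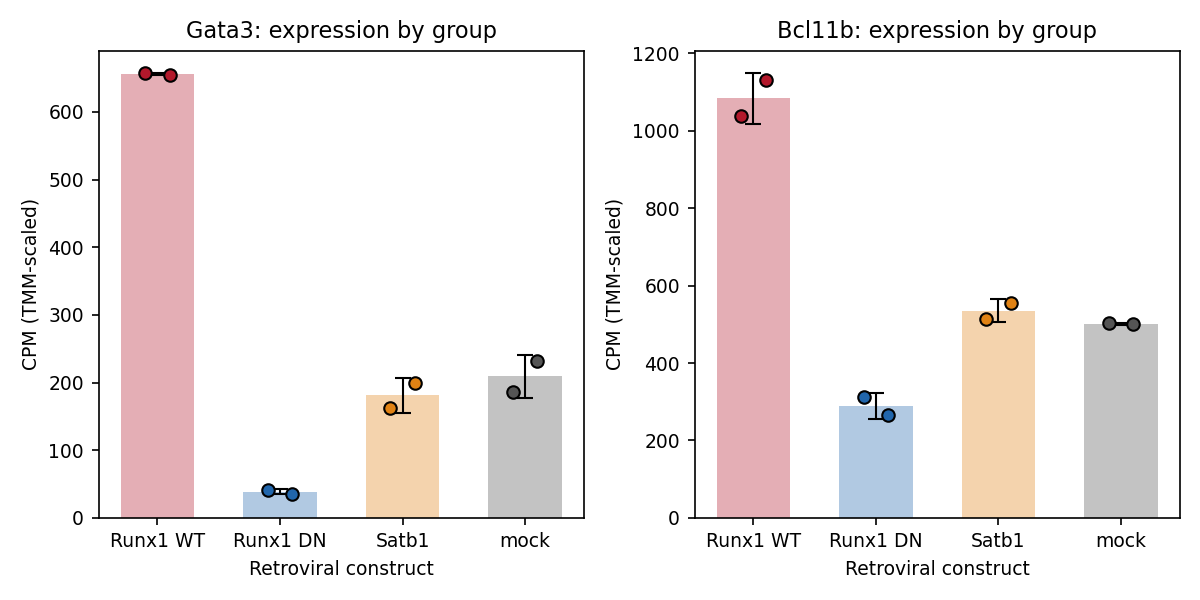
Level of Gata3 (left) and Bcl11b (right) in CPM on the TMM scale, by retroviral construct. Points are libraries, bars are means and error bars are SD over 2 libraries. For Gata3 the group means are 656, 38.6, 181 and 209 CPM in Runx1 WT, Runx1 DN, Satb1 and mock cells. For Bcl11b they are 1084, 289, 535 and 502 CPM in the same order.

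Added wild-type Runx1 went with more of both factors. Gata3 averaged 656 ± 1.55 CPM in Runx1 WT cells and 209 ± 32.3 CPM in mock cells (SD, n = 2 each), a log2 change of 1.65 ± 0.12 (SE), which is 3.14-fold (adjusted p = 1.16e-06, edgeR). Bcl11b averaged 1084 ± 65.3 CPM in Runx1 WT cells and 502 ± 2.75 CPM in mock cells, a log2 change of 1.11 ± 0.09, which is 2.16-fold (adjusted p = 2.3e-06, edgeR). Passing the test was common here, since 70.7% of all genes tested were called, 38.9% higher with Runx1 WT and 31.8% lower. In the upward direction, 11.5% of genes tested had a more positive log2 change than Gata3 and 18% a more positive one than Bcl11b. Without the Satb1 and mock libraries numbered 2, the log2 change was 1.81 for Gata3 and 1.10 for Bcl11b. The median gene tested moved by 0.10, so relative to it the changes were 1.55 for Gata3 and 1.01 for Bcl11b.

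The Runx1 DN construct went with less of both factors, and the loss was deeper for Gata3. Gata3 averaged 38.6 ± 3.88 CPM in Runx1 DN cells and 209 ± 32.3 CPM in mock cells (SD, n = 2 each), a log2 change of -2.44 ± 0.13, or 5.42-fold lower (adjusted p = 5.86e-07, edgeR). Bcl11b averaged 289 ± 33.4 CPM in Runx1 DN cells and 502 ± 2.75 CPM in mock cells, a log2 change of -0.80 ± 0.09, or 1.74-fold lower (adjusted p = 0.000116, edgeR). In this comparison 34.5% of genes tested were called, 17.5% higher with Runx1 DN and 16.9% lower. Only 1.32% of genes tested had a more negative log2 change than Gata3, and 6.34% a more negative one than Bcl11b. Without the 2 libraries that stood apart, the log2 changes were -2.27 and -0.80.

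Added Satb1 did not move either factor past the test. Gata3 averaged 181 ± 25.3 CPM in Satb1 cells and 209 ± 32.3 CPM in mock cells, a log2 difference of -0.21 with a 95% interval of -0.48 to 0.06 (adjusted p = 0.409, edgeR). Bcl11b averaged 535 ± 29.3 CPM in Satb1 cells and 502 ± 2.75 CPM in mock cells, a log2 difference of 0.09 with a 95% interval of -0.11 to 0.30 (adjusted p = 0.662, edgeR). The unadjusted p was 0.115 for Gata3 and 0.33 for Bcl11b, and DESeq2 and limma-voom called neither. For scale, 6.36% of the genes tested passed with Satb1, 3.28% higher and 3.09% lower. Without the 2 libraries that stood apart, the log2 differences were -0.19 and 0.03. A miss of the threshold does not show that the levels were equal, and the intervals give what these libraries allow.

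**Figure D2:**
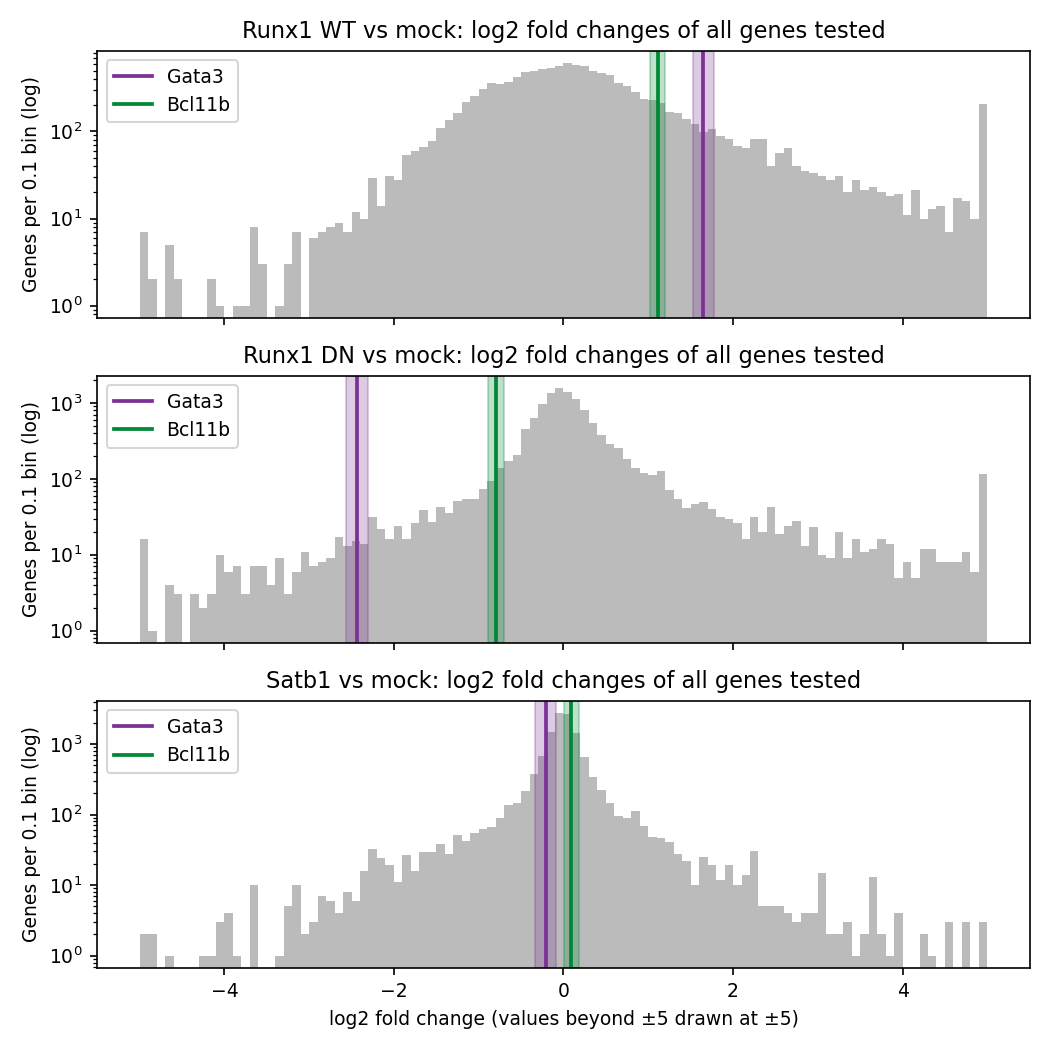
Number of genes tested by log2 fold change (log axis for the number), for each construct against mock, with values beyond the axis drawn at its ends. Lines mark Gata3 and Bcl11b with their SE. Both lie on the positive side with Runx1 WT (1.65 and 1.11), on the negative side with Runx1 DN (-2.44 and -0.80) and near the middle with Satb1 (-0.21 and 0.09).

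Set directly against Runx1 DN, Runx1 WT gave the widest contrast of the study for both members. The log2 change was 4.09 ± 0.14 for Gata3, which is 17.0-fold (adjusted p = 7.02e-09, edgeR), and 1.91 ± 0.09 for Bcl11b, which is 3.75-fold (adjusted p = 8.1e-08, edgeR). In this contrast 68.3% of genes tested were called, 34.8% higher with Runx1 WT and 33.5% lower. Of all genes tested 2.49% had a more positive log2 change than Gata3 and 8.38% a more positive one than Bcl11b. Against Satb1 cells, where 70.9% of genes tested were called, 38.7% higher with Runx1 WT and 32.2% lower, the log2 change was 1.86 ± 0.12 for Gata3 and 1.02 ± 0.09 for Bcl11b (adjusted p = 5.17e-07 and 4.07e-06, edgeR). Runx1 DN against Satb1, with 38% of genes tested called, 19.4% higher and 18.6% lower, gave -2.23 ± 0.13 for Gata3 and -0.89 ± 0.09 for Bcl11b (adjusted p = 1.01e-06 and 4.82e-05, edgeR). Each level therefore fell into an order of Runx1 WT first, Satb1 and mock together, and Runx1 DN last. Only the Satb1 and mock neighbours in that order were not separated.

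The authors' deposited table gives log2 fold changes against mock of 1.55 for Gata3 and 1.01 for Bcl11b with Runx1 WT. With Runx1 DN the authors' deposited table gives -2.44 for Gata3 and -0.80 for Bcl11b, and with Satb1 it gives -0.21 for Gata3 and 0.09 for Bcl11b. Its Runx1 WT values are slightly smaller than the edgeR values above, with the same sign.

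The balance of the steps up and down was read from the sum of a gene's log2 changes with Runx1 WT and Runx1 DN against mock. For Gata3 the sum was -0.79 ± 0.21 (adjusted p = 0.0083, edgeR). For Bcl11b the sum was 0.32 ± 0.16 (adjusted p = 0.109, edgeR). This sum was chosen after the values were seen. Gata3's call was lost without mock library 2 (-0.46, adjusted p = 0.13, edgeR) and by quantile scaling (-0.39, adjusted p = 0.14, limma). Bcl11b's sum passed the test by library size (0.52, adjusted p = 0.0128, edgeR), by quantiles (0.93, adjusted p = 0.000992, limma) and without Runx1 DN library 2 (0.42, adjusted p = 0.0362, edgeR). The sums therefore depend on the scaling and on single libraries, and no imbalance is read from them.

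Per kilobase of exon the genes can be set side by side. Gata3 averaged 205 CPM per kilobase in Runx1 WT cells, 12.0 in Runx1 DN cells, 56.4 in Satb1 cells and 65.2 in mock cells. Bcl11b averaged 137 CPM per kilobase in Runx1 WT cells, 36.5 in Runx1 DN cells, 67.6 in Satb1 cells and 63.4 in mock cells. Among genes tested, Gata3 exceeded 97.8% in Runx1 WT cells, 52.2% in Runx1 DN cells, 87.5% in Satb1 cells and 89.2% in mock cells on that scale. Bcl11b exceeded 96.2% in Runx1 WT cells, 80.6% in Runx1 DN cells, 89.9% in Satb1 cells and 88.9% in mock cells. In Runx1 DN cells Gata3 thus sat near the middle of the genes tested and Bcl11b stayed well above it.

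The ratio of Gata3 to Bcl11b per kilobase does not depend on library scaling. It was 1.56 and 1.43 in Runx1 WT cells, 0.327 and 0.334 in Runx1 DN cells, 0.782 and 0.883 in Satb1 cells and 0.913 and 1.15 in mock cells. The Runx1 WT libraries had the highest ratios and the Runx1 DN libraries the lowest, and the 4 groups did not overlap. On the log2 scale the difference from mock was 0.55 with Runx1 WT, -1.63 with Runx1 DN and -0.30 with Satb1, each with a pooled SE of 0.14. Runx1 WT exceeded Runx1 DN by 2.18. An exact permutation test of the F statistic over the 4 groups gave p = 0.00952, the smallest that the 105 partitions of 8 libraries into groups of 2 can give. It asks whether the ratio differed among groups and does not test single pairs.

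**Figure D3:**
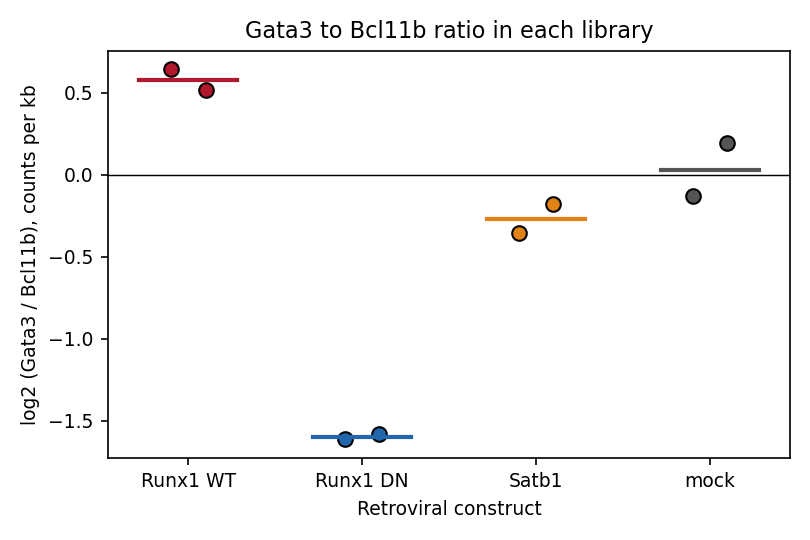
Log2 of the ratio of Gata3 to Bcl11b, in counts per kilobase of exon, in each library (points) with the group mean (lines), by construct. The means are 0.58 in Runx1 WT cells, -1.60 in Runx1 DN cells, -0.27 in Satb1 cells and 0.03 in mock cells, and both Runx1 DN libraries lie far below the rest.

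Across the 8 libraries the log2 levels of Gata3 and Bcl11b had a Pearson r of 0.976. Of 9866 other genes with a mean of at least 2 CPM, 0.75% had a higher r with Gata3, and the same share had a higher r with Bcl11b. These coefficients describe 4 group levels more than 8 independent points, since the libraries of a group share their construct, and they carry no test. The 8 genes most like Gata3 by this measure were Sema4d, Mbp, Camkk2, Ralgps2, Ptprc, Fcho1, Il17rb and Ssbp3, with r between 0.991 and 0.999. The 8 most like Bcl11b were Lztfl1, Sbk1, Fmnl3, Sec24c, Sfxn3, Cd247, Rftn1 and Def6, with r between 0.990 and 0.996.

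The genes most like Gata3 differed in the size of their steps. Sema4d, a semaphorin of lymphocytes, had 219 and 210 CPM in Runx1 WT cells, 54.9 and 53.9 CPM in Runx1 DN cells, 105 and 124 CPM in Satb1 cells and 116 and 131 CPM in mock cells. Like Gata3, it was higher in library 2 of the Satb1 and mock groups. Ptprc, which encodes the CD45 phosphatase, had 1103 and 1252 CPM in Runx1 WT cells, 337 and 361 CPM in Runx1 DN cells, 669 and 726 CPM in Satb1 cells and 700.3 and 720 CPM in mock cells. Il17rb, the receptor for interleukin 25 on type 2 lymphoid cells, had 309 and 336 CPM in Runx1 WT cells, 2.70 and 2.48 CPM in Runx1 DN cells, 55.0 and 50.3 CPM in Satb1 cells and 54.3 and 52.9 CPM in mock cells. Its log2 changes of 2.59 with Runx1 WT and -4.37 with Runx1 DN were larger than those of Gata3. Among the genes most like Bcl11b, Cd247 encodes the zeta chain of the T cell receptor complex. It had 240 and 220 CPM in Runx1 WT cells, 47.6 and 44.5 CPM in Runx1 DN cells, 97.0 and 92.4 CPM in Satb1 cells and 98.1 and 89.8 CPM in mock cells.

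Rows next to the members on the chromosome were read beside them. Of the 10 rows around Gata3 in the table, the 5 nearest on each side, 7 were tested and none overlapped its span there. With Runx1 WT, 4 of the 7 rose (Celf2, 4930412O13Rik, 9230102O04Rik and Kin) and 2 fell (Taf3 and Atp5c1), against 38.9% higher and 31.8% lower over all genes tested. With Runx1 DN, against 16.9% lower over all genes, 4 fell (Celf2, 4930412O13Rik, 9230102O04Rik and Atp5c1), and with Satb1 the smallest adjusted p among the 7 was 0.289 (edgeR). Of the 7, none had a larger step than Gata3 with Runx1 WT or Runx1 DN against mock.

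The noncoding transcripts beyond Gata3's 5′ end moved the same way as the gene. 4930412O13Rik, on the plus strand and 2.65 kb away, had 5.14 and 4.43 CPM in Runx1 WT cells, 0.624 and 0.900 CPM in Runx1 DN cells, 1.20 and 1.24 CPM in Satb1 cells and 1.59 and 1.63 CPM in mock cells. 9230102O04Rik, on the minus strand and 4.44 kb away, carries the RefSeq synonym linc_Gata3. It had 10.7 and 9.32 CPM in Runx1 WT cells, 1.33 and 1.76 CPM in Runx1 DN cells, 2.85 and 2.76 CPM in Satb1 cells and 2.99 and 3.80 CPM in mock cells. The log2 change was 1.57 and 1.55 for these rows with Runx1 WT, and -1.06 and -1.13 with Runx1 DN. For 4930412O13Rik the Runx1 DN call was lost without Runx1 DN library 1 (-0.83), without mock library 2 (-1.05) and without both libraries that stood apart (-1.04). Their spans overlap in part on opposite strands, and the kit does not mark strand, so reads from the shared stretch cannot be assigned to either. In RefSeq on GRCm38.p6, whose Gata3 span includes longer transcripts, 5522 of 5522 bases of 4930412O13Rik and 4913 of 6500 bases of 9230102O04Rik lie inside Gata3. Whether longer Gata3 transcripts gave part of these counts was not tested. Celf2, an RNA-binding protein gene 2.99 Mb beyond the 3′ end, had a log2 change of 0.57 with Runx1 WT and -0.76 with Runx1 DN.

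Of the 10 rows around Bcl11b, the 5 nearest on each side, 8 were tested. With Runx1 WT 3 rose (4933406K04Rik, 4930465M20Rik and Ccdc85c) and 3 fell (Papola, Vrk1 and Ccnk), which is near the 38.9% and 31.8% over all genes tested. With Runx1 DN, against 17.5% higher and 16.9% lower over all genes, Hhipl1 rose and Vrk1 and Setd3 fell, and with Satb1 the smallest adjusted p among the 8 was 0.608 (edgeR). 4933406K04Rik passed the filter only through its Runx1 WT libraries. Hhipl1, with 16 and 18 counts in Runx1 DN cells and 1 and 6 in mock cells, would not have passed without its Runx1 DN libraries. Nothing is read from the calls of these 2 rows there. The nearest row beyond the 3′ end, 4930465M20Rik, lies 175 kb away. It had 7.95 and 7.79 CPM in Runx1 WT cells, 1.46 and 1.48 CPM in Runx1 DN cells, 2.37 and 2.48 CPM in Satb1 cells and 2.42 and 1.69 CPM in mock cells. Its Runx1 WT libraries stood clear of all others. 4933406K04Rik, 1.19 Mb beyond the 3′ end, had 111 and 199 counts in Runx1 WT cells, 0 and 0 in Runx1 DN cells, 1 and 0 in Satb1 cells and 0 and 1 in mock cells. That is a ratio of 320 to mock, with an exact 95% counting interval of 57 to 12700, and a level at least 95.6-fold higher than in Runx1 DN cells with 3 counts over the group in place of 0.

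**Figure D4:**
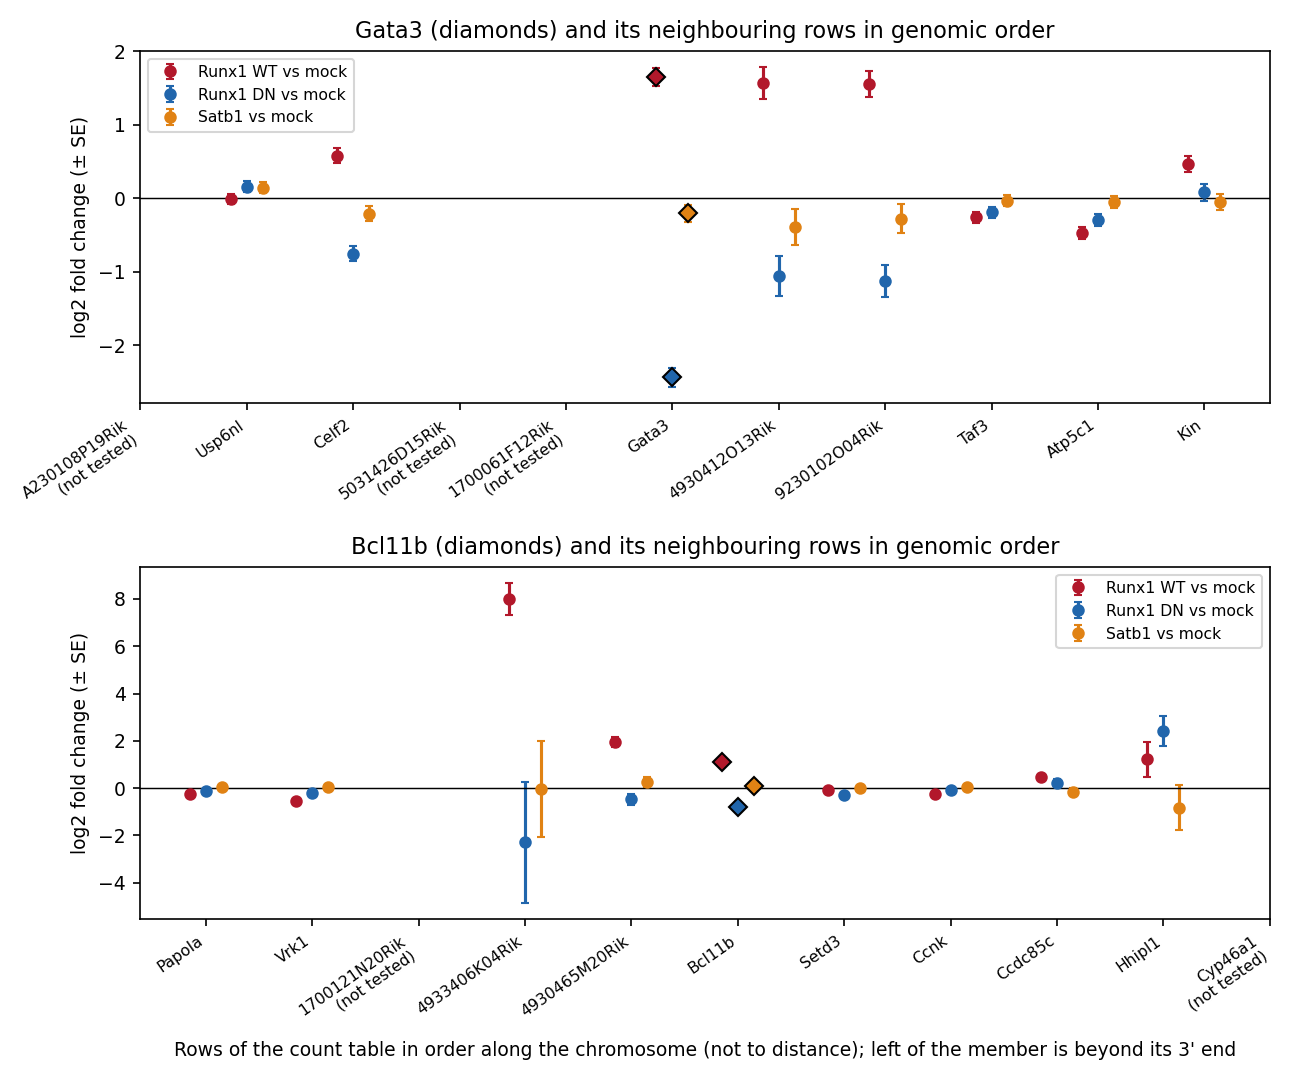
Log2 fold change (± SE) of Gata3 (top) and Bcl11b (bottom), drawn as diamonds, and of the 5 nearest rows on each side (circles), for each construct against mock, in order along the chromosome. The circles nearest to Gata3 on its 5′ side lie at 1.57 and 1.55 with Runx1 WT and at -1.06 and -1.13 with Runx1 DN. The fitted values of 4933406K04Rik rest on groups with 0 or 1 count and are no bounds.

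The closest relatives of the members were scarce. Of the other 5 GATA factor genes, Gata2, Gata4, Gata5 and Gata6 had at most 1 count over all 8 libraries. Gata1, the erythroid and mast cell factor, had 3.67 and 3.93 CPM in Runx1 WT cells, 2.25 and 2.05 CPM in Runx1 DN cells, 1.58 and 0.953 CPM in Satb1 cells and 2.34 and 2.01 CPM in mock cells. Its log2 change with Runx1 WT was 0.81 (adjusted p = 0.0118, edgeR), a call that was lost with DESeq2 (0.76, adjusted p = 0.0556), with quantile scaling in limma-voom (0.11, adjusted p = 0.701), without Runx1 WT library 2 (0.76, adjusted p = 0.0561) and without mock library 2 (0.69, adjusted p = 0.0763). Bcl11a, the paralog of Bcl11b used by B cells and progenitors, had 2 and 1 counts in Runx1 WT cells, 10 and 7 in Runx1 DN cells, 1 and 2 in Satb1 cells and 0 and 2 in mock cells. It was too scarce for the test, and its Runx1 DN level was 9.48 times that of mock with an exact 95% counting interval of 2.25 to 84.6, which covers counting error only.

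The list of GATA factor partners held 8 cofactors and members of GATA complexes, of which 4 were tested. With Runx1 WT 2 of the 4 rose, with Runx1 DN 1 rose and 2 fell, and with Satb1 1 rose and 1 fell. Over all genes tested the shares were 38.9% higher with Runx1 WT, 17.5% higher and 16.9% lower with Runx1 DN, and 3.28% and 3.09% with Satb1. By library size 4 rose with Runx1 WT. With Runx1 DN 1 fell by library size, by quantiles and without the 2 libraries that stood apart, and without those libraries 0 rose and 0 fell with Satb1. Zfpm1, which encodes the GATA cofactor FOG-1, had 225 and 209 CPM in Runx1 WT cells, 90.6 and 77.1 CPM in Runx1 DN cells, 101 and 79.8 CPM in Satb1 cells and 150 and 128 CPM in mock cells. Its libraries did not overlap between mock and any construct. The log2 change was 0.64 with Runx1 WT, -0.73 with Runx1 DN and -0.62 with Satb1. The Satb1 call was lost without Satb1 library 2 (-0.46), without mock library 1 (-0.51) and without both libraries that stood apart (-0.57). Lmo4, a LIM-only adaptor, had log2 changes of 0.37 with Runx1 WT, -0.31 with Runx1 DN and 0.63 with Satb1. Its Runx1 WT call was lost without mock library 1 (0.32) and its Satb1 call without both libraries that stood apart (0.71). Lyl1, a basic helix-loop-helix factor of progenitors, had 1.16 and 1.19 CPM in Runx1 DN cells and 0.151 and 0.383 CPM in mock cells, a log2 change of 2.08.

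Chromatin complexes that Bcl11b works with showed no common direction. Of 13 genes of NuRD, a remodelling and deacetylase complex, 3 rose and 6 fell with Runx1 WT, 1 rose and 3 fell with Runx1 DN, and 1 fell with Satb1. Over all genes tested 38.9% were higher and 31.8% lower with Runx1 WT, 17.5% and 16.9% with Runx1 DN, and 3.28% and 3.09% with Satb1. By library size 5 of the 13 rose with Runx1 WT, and without the 2 libraries that stood apart 0 rose and 1 fell with Runx1 DN. Their median log2 change was -0.17 with Runx1 WT, against 0.10 over all genes tested. Rbbp7, a histone-binding subunit, fell with both Runx1 constructs, with log2 changes of -1.08 with Runx1 WT and -0.50 with Runx1 DN. Mta3 rose by 1.02 with Runx1 WT, and Chd3 had a log2 change of -0.82 with Satb1. Of 16 genes of BAF, the SWI/SNF remodelling complex, 6 rose and 5 fell with Runx1 WT, and 1 rose and 1 fell both with Runx1 DN and with Satb1. The Runx1 WT counts are near the 38.9% and 31.8% over all genes tested. Those with Runx1 DN and Satb1 were all 0 without the 2 libraries that stood apart. Arid1b rose by 0.89 and Smarcc1 had a log2 change of -0.95 with Runx1 WT.

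Regulators of early T cells that may act on Gata3 or Bcl11b were listed as 15 genes and all were tested. Runx1, which the constructs delivered, is left out of the counts. Of the other 14, 4 rose and 6 fell with Runx1 WT, against 38.9% higher and 31.8% lower over all genes tested. With Runx1 DN 3 rose and 9 fell, against 17.5% and 16.9%, and with Satb1 5 rose, against 3.28%. With Runx1 in the list, 6 rose with Satb1, or 3 without the 2 libraries that stood apart. The median log2 change of the 14 was -0.12 with Runx1 WT, -0.49 with Runx1 DN and 0.14 with Satb1. Tcf7, which encodes TCF-1, had 1236 and 1240 CPM in Runx1 WT cells, 185 and 197 CPM in Runx1 DN cells, 1243 and 1310 CPM in Satb1 cells and 1226 and 1240 CPM in mock cells. It was low in the Runx1 DN libraries only, with a log2 change of -2.69 against mock (adjusted p = 7.13e-09, edgeR). Ets1, an Ets factor of T cells, had 320 and 338 CPM in Runx1 WT cells, 70.8 and 72.0 CPM in Runx1 DN cells, 214 and 230 CPM in Satb1 cells and 213 and 221 CPM in mock cells, an order of groups like that of Bcl11b.

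Notch1, the receptor that starts the T cell programme, differed from the members. Notch1 had 325 and 288 CPM in Runx1 WT cells, 1717 and 1596 CPM in Runx1 DN cells, 1835 and 1571 CPM in Satb1 cells and 814 and 731 CPM in mock cells. Its log2 change was -1.33 with Runx1 WT, 1.10 with Runx1 DN and 1.14 with Satb1, so it was low where Gata3 and Bcl11b were high. Lef1, the relative of TCF-1, had log2 changes of 0.82 with Runx1 WT, -0.49 with Runx1 DN and 2.15 with Satb1. Runx3, the other Runx gene of the list, rose by 3.06 with Runx1 WT.

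The listed T cell identity genes mostly rose with Runx1 WT and fell with Runx1 DN. The list held 20 genes, of which 19 were tested. With Runx1 WT 15 rose and 3 fell, with Runx1 DN 1 rose and 13 fell, and with Satb1 7 rose and 1 fell, or 4 and 0 without the 2 libraries that stood apart. Over all genes tested the shares were 38.9% higher and 31.8% lower with Runx1 WT, 17.5% and 16.9% with Runx1 DN, and 3.28% and 3.09% with Satb1. The median log2 change was 0.83 with Runx1 WT, -0.77 with Runx1 DN and 0.12 with Satb1. Cd4 had 226 and 252 counts in Runx1 WT cells and 8 and 5 in mock cells. Cd5 had 12 and 14 counts in Satb1 cells and 1 and 3 in mock cells. Each passed the filter only through the group where it was high and is counted as risen there, so nothing is read from those calls. Lck, the kinase that starts T cell receptor signalling, had log2 changes of 0.96 with Runx1 WT, -2.01 with Runx1 DN and 0.67 with Satb1. Cd3g, a CD3 chain, rose by 1.75 with Runx1 WT. Ptcra, which encodes pre-T alpha, had log2 changes of -1.96 with Runx1 WT and 0.56 with Runx1 DN, both opposite to the members. Rag1, a recombinase gene, had log2 changes of -1.95 with Runx1 WT, -3.81 with Runx1 DN and 1.00 with Satb1, so it was lower with both Runx1 constructs.

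**Figure D5:**
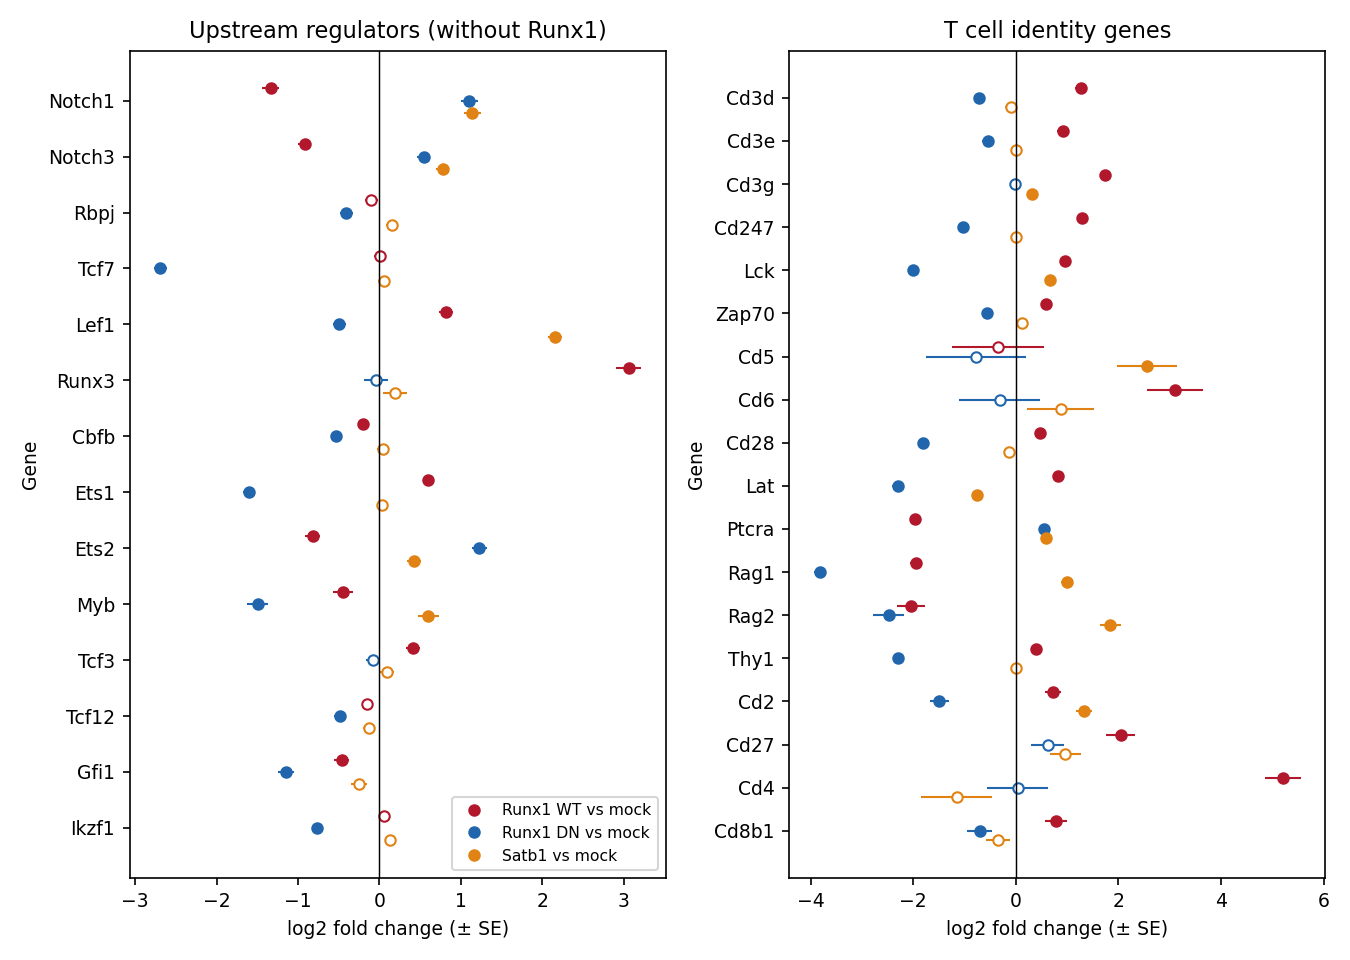
Log2 fold change (± SE) against mock of the listed regulators that may act on the members (left, without Runx1) and of T cell identity genes (right), for each construct. Filled points passed an adjusted p of 0.05 and open points did not. Tcf7 lies at -2.69 with Runx1 DN, and Notch1 lies at -1.33 with Runx1 WT and above 0 with the other constructs.

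Genes that Bcl11b is held to keep down in pro-T cells differed between the constructs beside it. Of 18 listed, 14 were tested, and several passed the filter only through their high Runx1 WT libraries, so nothing is read from their number of calls. Id2, an inhibitor of E proteins, had 255 and 296 CPM in Runx1 WT cells, 85.5 and 80.8 CPM in Runx1 DN cells, 64.1 and 76.8 CPM in Satb1 cells and 55.8 and 67.2 CPM in mock cells. Its level was thus highest where Bcl11b was highest, and its log2 change was 2.16 with Runx1 WT. Id2 was picked for description after its values were seen. With Runx1 WT, Nkg7, Fcer1g and Il2rb also rose, with log2 changes of 6.95, 4.76 and 5.51. Only Nfil3 of the list's tested genes fell there, with a log2 change of -1.07. Tbx21, which encodes T-bet, had 232 and 221 CPM in Runx1 WT cells, 18.4 and 15.8 CPM in Runx1 DN cells, 8.45 and 10.5 CPM in Satb1 cells and 15.7 and 19.8 CPM in mock cells. Zbtb16, which encodes the innate lymphoid factor PLZF, had 11.7 and 17.4 CPM in Runx1 WT cells, 0.374 and 0.396 CPM in Runx1 DN cells, 9.34 and 8.52 CPM in Satb1 cells and 0.983 and 1.21 CPM in mock cells, so it was high in Satb1 cells while Bcl11b was near its mock level. Tyrobp, a signalling adaptor of natural killer and myeloid cells, had 2.71 and 2.32 CPM in Runx1 WT cells, 15.4 and 13.1 CPM in Runx1 DN cells, 0.515 and 0.921 CPM in Satb1 cells and 0.227 and 0.415 CPM in mock cells. It was highest in Runx1 DN cells, with a log2 change of 5.42, but Fcer1g and Il2rb of the same list had log2 changes of -2.23 and -2.10 there. In that comparison the list's genes thus went both ways while Bcl11b was at its lowest.

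Type 2 genes linked to Gata3 split. Of 13 listed, 10 were tested. With Runx1 WT 5 rose and 3 fell, with Runx1 DN 2 rose and 4 fell, and with Satb1 1 rose and 1 fell. Over all genes tested the shares were 38.9% higher and 31.8% lower with Runx1 WT, 17.5% and 16.9% with Runx1 DN, and 3.28% and 3.09% with Satb1. Under quantile scaling 3 rose and 5 fell with Runx1 WT. Without the 2 libraries that stood apart 1 rose with Runx1 DN and 0 fell with Satb1. Il4 had 31 and 22 counts in Runx1 WT cells and 9 and 12 in mock cells. Ccr8 had 17 and 19 counts in Runx1 DN cells and 8 and 8 in mock cells. Neither would have passed the filter without the group where it was high, and each is counted as risen there. Nothing is read from those calls. Besides Il17rb, Rora, a nuclear receptor of type 2 innate lymphoid cells, had 359 and 457 CPM in Runx1 WT cells, 53.9 and 52.0 CPM in Runx1 DN cells, 88.1 and 109 CPM in Satb1 cells and 98.6 and 109.9 CPM in mock cells, an order like that of Gata3. Il10 instead had a log2 change of -2.02 with Runx1 WT and -0.95 with Runx1 DN. Ccr4, a chemokine receptor of type 2 helper cells, had a log2 change of -1.66 with Runx1 DN and 1.62 with Satb1, where Gata3 did not pass the test.

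Genes of the B and myeloid fates, which Gata3 and Bcl11b oppose in T cell progenitors, were measured in part. Of 11 listed, 5 were tested, some of them only through the group where they were high, so nothing is read from their number of calls. Itgam, an integrin chain of myeloid and natural killer cells, had 65.1 and 70.4 CPM in Runx1 WT cells, 14.4 and 16.1 CPM in Runx1 DN cells, 12.1 and 19.4 CPM in Satb1 cells and 7.18 and 9.48 CPM in mock cells. Its libraries were above mock with each construct. Spi1, which encodes the myeloid factor PU.1, had 0.357 and 0.321 CPM in Runx1 WT cells, 18.8 and 15.5 CPM in Runx1 DN cells, 0.927 and 1.88 CPM in Satb1 cells and 0.227 and 1.05 CPM in mock cells. It was high in the Runx1 DN libraries, where both members were at their lowest. Spib, its relative, had 56.1 and 52.6 CPM in Runx1 WT cells, 4.24 and 6.48 CPM in Runx1 DN cells, 1.44 and 1.40 CPM in Satb1 cells and 1.02 and 0.989 CPM in mock cells.

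Marker lists of the cell types that the sorted cells could hold were read beside these changes. The 10 pro-T markers summed to 4078 and 4045 CPM in Runx1 WT cells, 2691 and 2581 CPM in Runx1 DN cells, 6046 and 5835 CPM in Satb1 cells and 4196 and 4108 CPM in mock cells, with none at 0 in any group. The Runx1 DN sum was mostly Notch1, at 1717 and 1596 CPM. With Runx1 DN 6 of the 10 fell, among them Il2ra with a log2 change of -2.96, against 16.9% lower over all genes. Another 2 rose, Notch1 and Ptcra, against 17.5% higher over all genes. Several of these markers also belong to the regulator and T cell identity lists. The 7 natural killer and innate lymphoid markers summed to 123 and 125 CPM in Runx1 WT cells, 0.457 and 0.468 CPM in Runx1 DN cells, 3.02 and 4.32 CPM in Satb1 cells and 0.907 and 1.37 CPM in mock cells, with Klrd1 at 0 in every library. The 8 myeloid markers summed to 68.6 and 73.0 CPM in Runx1 WT cells, 17.1 and 19.4 CPM in Runx1 DN cells, 12.5 and 19.7 CPM in Satb1 cells and 7.26 and 9.73 CPM in mock cells, with Cebpa and Elane at 0 in both Runx1 WT libraries. Itgam made up most of that sum in every library, and the macrophage marker Adgre1 was highest in Runx1 DN cells, at 2.12 and 2.09 CPM. The 7 erythroid and mast cell markers summed to 151 and 202 CPM in Runx1 WT cells, 10.3 and 10.8 CPM in Runx1 DN cells, 13.4 and 15.6 CPM in Satb1 cells and 45.5 and 55.2 CPM in mock cells, with Mcpt4 and Tpsb2 at 0 in every library. Cpa3, a mast cell protease, gave 142 and 193 CPM of the Runx1 WT sum. The 6 B cell markers stayed at or below 1.43 CPM in sum. The natural killer, myeloid and mast cell sums were highest in Runx1 WT cells, each carried by a few genes, and their part in the members' levels was not tested.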

How the data were processed

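RNA-seq of sorted, retrovirus-infected Scid.adh.2c2 cells gave 8 libraries of 50 nt single reads from a kit that does not mark strand, per the labels' protocols. Tools named in the submitters' processing notes are edgeR 3.6.8, HOMER, RSEM 1.2.25, Trimmomatic 033 and STAR 2.4.0. The deposited values are raw read counts over the exons of each gene, on mm9, as HOMER gives them per the file headers, although the table is named for RPKM. It also holds the authors' log2 fold changes, p-values and adjusted p-values against mock. How reads that map to several genes were treated is not given in the sources used here.

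From the counts, edgeR 4.0.16 in R 4.3.3 gave TMM-scaled CPM and the quasi-likelihood test, on genes kept by filterByExpr (minimum count 10, minimum total 15), with group means fitted over all 8 libraries, Benjamini-Hochberg adjustment and a threshold of 0.05. Group labels came from the sample titles. DESeq2 1.42.0, limma 3.58.1, other scalings and filters, the replicate number as a block and leaving out libraries were alternatives. Library scaling cancels in the Gata3 to Bcl11b ratio. Promoter sequences came from RefSeq. Members and gene lists were chosen with earlier results of these data known. The text names the members, the 5 rows on each side of them, the 8 genes with the highest r to each (prior count 2), and up to 4 genes per list and comparison by adjusted p. Intervals on counts cover counting error only. A gene of the T cell identity list is counted there but not reported or drawn here.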

Additional observations from a re-analysis of the deposited data

How the results depend on the processing

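All 12 log2 fold changes of Gata3 and Bcl11b between groups kept their direction and their side of the threshold under every alternative run. Against mock they ran from 1.50 to 1.99 for Gata3 and 1.03 to 1.55 for Bcl11b with Runx1 WT, from -2.59 to -2.27 and -0.91 to -0.63 with Runx1 DN, and from -0.36 to -0.04 and 0.03 to 0.15 with Satb1. Scaling moved the median gene with Runx1 WT to 0.22 by library size and -0.11 by quantiles, and the share of calls that were higher was 55.1% as reported, 62.2% and 45% in those settings. With Runx1 DN against mock it was 50.9% as reported and 65.6% by library size, with Runx1 DN against Satb1 it was 51.1% and 64.4%, and with Runx1 WT against Satb1 it was 54.6% as reported and 43.9% by quantiles.

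The sum of Gata3's changes was -0.39 (adjusted p = 0.14, limma) by quantiles and -0.46 (adjusted p = 0.0972, edgeR) without both libraries numbered 2 of mock and Satb1, with a range of -1.09 to -0.46 when single libraries were left out. Bcl11b's sum was 0.52 (adjusted p = 0.0128, edgeR) by library size and 0.93 (adjusted p = 0.000992, limma) by quantiles, with a range of 0.18 to 0.42 when single libraries were left out. The cause was not tested. Genes called with Runx1 DN against mock numbered 4375, or 2908 to 4675 with single libraries left out and 2715 without both libraries numbered 2. With Satb1 against mock they numbered 808, or 430 to 839 and 314. With Runx1 DN against Satb1 they numbered 4825, or 3266 to 5108 and 3021. These alternatives test fewer samples.

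Replicate numbers were shared by the groups with no batch behind them in the labels. The correlation of the library 2 minus library 1 difference between groups ran from 0.068 to 0.392 over 12699 genes. With the replicate block, Gata3's changes were 1.66, -2.43 and -0.21 and Bcl11b's 1.11, -0.80 and 0.09 with Runx1 WT, Runx1 DN and Satb1 against mock, and 1265 genes were called with Satb1. The ratio test within the block gave an exact permutation p = 0.0417, the smallest that 24 permutations can give, and p = 0.00952 to 0.0286 with single libraries left out. The block changed no member's call. Of the counts of list members, 425 stayed within 1.5 times the reported count and 55 did not.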
